A study of Mus musculus with 4 samples.

Results

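The untreated BFP+ and BFP- dendritic cells were 385 and 3470 cell barcodes, together 3855 of the 9520 barcodes in the untreated capture and of the 15836 barcodes in the series. A barcode was taken as a dendritic cell (DC) if it had at least 500 detected genes, at most 10% mitochondrial UMIs (unique molecular identifiers, each standing for a captured transcript), at least 1 UMI of Fscn1 or Ccr7, and none of Cd3e, Cd3d, Cd3g, Cd79a or Cd79b. The gene and mitochondrial limits left 8422 barcodes, the Fscn1 or Ccr7 UMI left 7990, and the absence of T and B cell receptor complex UMIs left 5091. A barcode was called BFP+ where hashtag 1 made up at least 80% of the counts of hashtags 1 and 2, and BFP- where hashtag 2 did. The other 1236 DC barcodes carried mixed hashtags. None of the 5091 fell short of the required 10 counts of both hashtags together.

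The mice were Tnfsf4KI/+, heterozygous for a knock-in that reports OX40L (Tnfsf4) with blue fluorescent protein (BFP). Migratory DCs (migDC, sorted as B220- CD11cint MHCIIhi) came from the ear-draining lymph node at day 5, with 5000 BFP+ and 7000 BFP- cells sorted for each condition. Ears were left untreated, or received MC903, a vitamin D analogue under which TSLP is overexpressed per the series' design text, at days 0, 2 and 4. Both conditions share the reporter genotype, and the untreated and MC903 cells were captured separately and sequenced on different lanes, per the labels. Each population was 1 pool of cells, and the labels do not say how many mice it held. No difference below therefore has a replicate test, and every interval is a 95% interval for counting error only. The captures shared 23 barcode sequences.

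OX40L is a ligand of the TNF family that antigen-presenting cells show to OX40 on activated T cells, where it prolongs the T cell response and favours type 2 helper cells. In the skin, DCs and Langerhans cells take up antigen, mature, and travel under the receptor Ccr7 to the draining lymph node, where they present peptides on MHC class II, give costimulation through B7 family ligands and secrete cytokines and chemokines. Conventional DCs fall into type 1 (cDC1) and type 2 (cDC2), which differ in the T cells they preferentially prime.

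The 2 populations are told apart only by the oligos below, carried by antibodies to CD45 and MHC class I, whose reads were counted per barcode.
Hashtag 1 (untreated BFP+): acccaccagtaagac
Hashtag 2 (untreated BFP-): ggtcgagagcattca
The 15-base tags differ at 11 positions. BFP+ barcodes held a median of 271 counts of hashtag 1 and 9 of hashtag 2, and BFP- barcodes a median of 7 and 263. Mixed barcodes held a median of 56 and 73.

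Depth differed between the populations. BFP+ barcodes had a median of 4685 UMIs (total 2499564) and BFP- barcodes 2632 (total 13396248). At least 5000 UMIs were found in 48.3% of the BFP+ barcodes (exact Clopper-Pearson interval 43.2% to 53.4%) and in 18.1% of the BFP- barcodes (16.8% to 19.4%). Against the sort, MHC class II transcripts were abundant in both populations (H2-Aa at 6504 and 3722 CPM, counts per 1000000 UMIs), and Itgax, which encodes CD11c, was low and lower in BFP+ (13.2 and 31.7 CPM, log2 ratio -1.26, -1.82 to -0.75). Values are also given within 2 depth classes, in which the medians lie close together. The deep class, with at least 5000 UMIs, held 186 BFP+ barcodes (median 9870 UMIs) and 627 BFP- barcodes (median 9154). The shallow class, under 5000 UMIs, held 199 BFP+ (median 2417) and 2843 BFP- barcodes (median 2409).

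The transcripts of the sorted reporter were higher in BFP+, and more so in deep barcodes. Values are UMIs summed over a population and scaled to counts per 1000000 of its UMIs (CPM), and ratios are log2 of BFP+ over BFP-. BFP reached 73.2 CPM in BFP+ (183 UMIs) and 6.94 CPM in BFP- (93 UMIs), a log2 ratio of 3.40 (3.03 to 3.77). Tnfsf4 (chromosome 1, 161395409 to 161418410, plus strand, GRCm38) reached 27.2 CPM (68 UMIs) and 4.25 CPM (57 UMIs), a log2 ratio of 2.68 (2.15 to 3.21). In deep barcodes the ratios were 4.66 (4.00 to 5.39) for BFP and 3.28 (2.51 to 4.10) for Tnfsf4, and in shallow barcodes 1.32 (0.34 to 2.18) and 1.71 (0.48 to 2.79). The deep ratio exceeded the shallow one by 3.34 (2.26 to 4.41) for BFP and by 1.56 (0.28 to 2.85) for Tnfsf4.

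Most BFP+ barcodes had no UMI of either transcript. A BFP UMI was present in 52 of 385 BFP+ barcodes (13.5%) and 82 of 3470 BFP- barcodes (2.36%), and a Tnfsf4 UMI in 37 (9.61%) and 47 (1.35%). With each barcode thinned to 1000 UMIs, 3.66% of 382 BFP+ barcodes (2.02% to 6.07%) and 0.62% of 3372 BFP- barcodes (0.39% to 0.95%) kept a BFP UMI, and for Tnfsf4 the shares were 2.09% (0.91% to 4.08%) and 0.50% (0.29% to 0.81%). Thinning to 5000 UMIs, which leaves only the deep barcodes, gave 15.6% (10.7% to 21.6%) against 1.44% (0.66% to 2.71%) for BFP and 10.2% (6.26% to 15.5%) against 1.44% for Tnfsf4. Lymphocyte barcodes of the same capture, with at least 3 UMIs of the Cd3 and Cd79 genes and none of Fscn1 or Ccr7, served as background: of 120 at 1000 UMIs, 1 had a BFP UMI (0.83%, 0.02% to 4.56%) and none a Tnfsf4 UMI, which allows a share of up to 2.5%. Their median before thinning was 2921 UMIs. At 1000 UMIs the shares of both populations, for BFP and for Tnfsf4, lay within the counting error of this background.

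The reporter did not follow the hashtag share evenly. From barcodes with under 2% of hashtag 1 to those with 70% to 80%, BFP climbed from 1.33 CPM (0.66 to 2.38) to 92.0 CPM (64.1 to 127.9). Just inside the BFP+ threshold, at 80% to 90%, it was 34.0 CPM (18.1 to 58.2, 123 barcodes), below the value just outside it. At 95% to 100% it was 87.9 CPM (200 barcodes). Of those 200 barcodes, 162 were deep, with 92.2 CPM, and 38 were shallow, with 18.3 CPM (2.21 to 66.1). On the BFP- side, BFP was 29.2 CPM (21.4 to 39.0) at 10% to 20% and 36.8 CPM (26.3 to 50.2) just outside, at 20% to 30%. Shallow BFP+ barcodes as a whole (24.9 CPM) held less BFP than the mixed barcodes (55.7 CPM). Whether the hashtag call marks the sorted population in the 199 shallow of the 385 BFP+ barcodes was not tested, which bears on every shallow ratio and every ratio over all barcodes below.

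**Figure D1:**
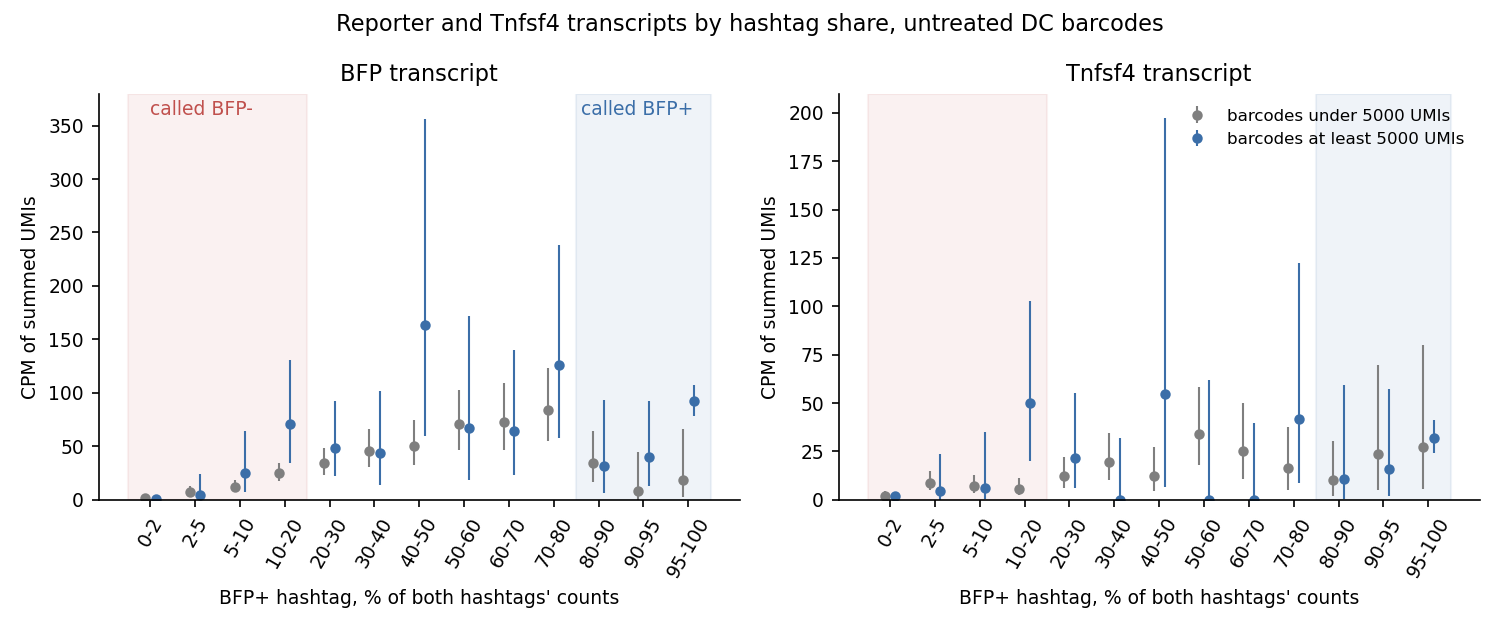
CPM of BFP (left) and Tnfsf4 (right) in untreated DC barcodes against the share of hashtag 1 in both hashtags' counts, for barcodes under 5000 UMIs (grey) and of at least 5000 UMIs (blue); bars are exact 95% Poisson intervals and shading marks the shares called BFP- and BFP+. Deep barcodes at 95% to 100% held 92.2 CPM of BFP and shallow ones 18.3 CPM.

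Across all genes the populations were close, with a limited set of differences in each direction. Of 5064 genes at 20 CPM or more in the higher population, 174 (3.44%) were at least 1.5-fold higher in BFP+ and 242 (4.78%) at least 1.5-fold lower, and these are the genes called higher or lower below. The median log2 ratio over all 5064 was -0.01. In deep barcodes 206 of 5079 genes (4.06%) were called higher and 307 (6.04%) lower, and in shallow barcodes 310 of 5183 (5.98%) and 502 (9.69%). Of 164 genes called higher in deep barcodes and measurable at the same minimum in shallow ones, 142 had the same direction there, with a median log2 ratio of 0.83 in deep and 0.48 in shallow barcodes. Of 280 genes called lower, 229 had the same direction, with medians of -0.79 and -0.43. The choice of genes in deep barcodes by itself makes the shallow medians smaller. With TMM scaling, 201 genes were higher and 195 lower, so that the share of called genes that were higher was 50.8% in place of 41.8%. Thinning every barcode to 1000 UMIs gave 517 of 5388 higher (9.6%) and 651 lower (12.1%), and the HTODemux hashtag caller 156 of 5060 higher (3.08%) and 160 lower (3.16%).

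**Figure D2:**
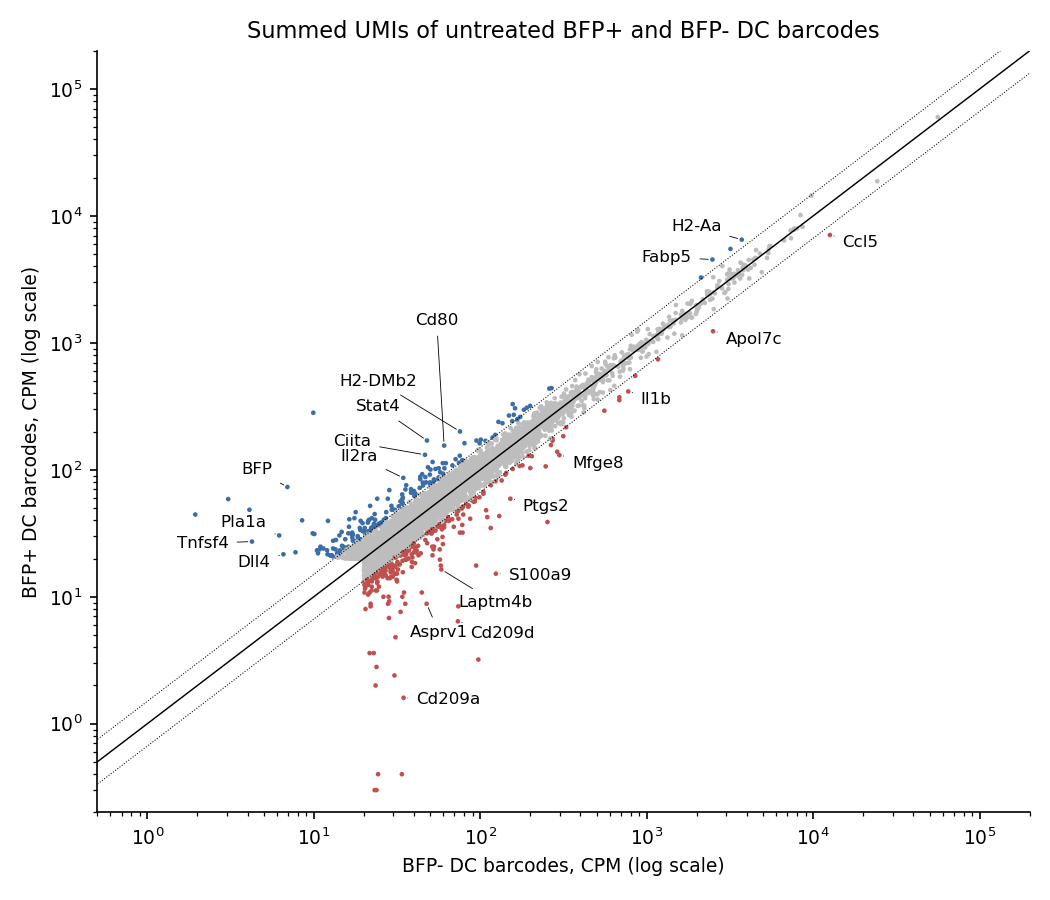
Each point is a gene at 20 CPM or more in the higher population, by its CPM in untreated BFP- (x) and BFP+ (y) DC barcodes on log axes; solid and dotted lines mark equality and 1.5-fold, blue and red the 174 higher and 242 lower genes, and genes below 0.3 CPM are drawn at 0.3. BFP, Tnfsf4, Pla1a, Stat4 and Ciita lie above the diagonal, and Cd209a, Cd209d, S100a9 and Ccl5 below it.

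Transcripts of MHC class II presentation were higher in BFP+. Of 15 measured genes, 8 were called higher (3.44% of all tested genes were) and none lower, 13 lay above a ratio of 1, and the median log2 ratio was 0.59 (0.79 in deep and 0.32 in shallow barcodes). Ciita, the transactivator that class II genes depend on (chromosome 16, 10480059 to 10528418, plus strand), was at 131 CPM in BFP+ and 46.6 CPM in BFP-, a log2 ratio of 1.49 (1.30 to 1.69). Its ratio was 1.74 (1.49 to 1.98) in deep and 0.39 (-0.17 to 0.91) in shallow barcodes, so the shallow interval included equality. Thinned to 5000 UMIs, 59 of 186 BFP+, 88 of 627 BFP- and 5 of 23 lymphocyte barcodes had a Ciita UMI. At 1000 UMIs the shares were 6.28% (4.07% to 9.20%), 4.63% (3.94% to 5.39%) and 7.5% (3.49% to 13.8%), intervals that overlapped. The lymphocyte interval at 5000 UMIs, 7.46% to 43.7%, overlapped those of both populations too. Lymphocytes may transcribe Ciita themselves, which was not tested, so they give no background level for it. The peptide-binding chains were called higher with smaller ratios. H2-Aa (chromosome 17, 34282744 to 34287823, minus strand) stood at 6504 against 3722 CPM (0.81, 0.78 to 0.83), H2-Eb1 at 5495 against 3185 CPM (0.79) and H2-Ab1 at 3270 against 2119 CPM (0.63). Cd74, the invariant chain that guides class II to endosomes, was just under the fold limit at 0.57 (0.55 to 0.58).

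The peptide editors of class II split. H2-DMb2, a chain of the editor that loads peptides, was at 200.4 against 75.5 CPM, a log2 ratio of 1.41 (1.25 to 1.56), and H2-DMa at 268 against 149 CPM (0.85), while H2-DMb1 had 0.35 (0.14 to 0.55) and was not called. H2-DMb1 and H2-DMb2 are close paralogs, so reads may have been divided between them. Of the inhibitor H2-O, H2-Oa was higher (100.4 against 50.2 CPM, interval 0.78 to 1.21) and H2-Ob, at 8.40 against 19.3 CPM, had a ratio of -1.20 (-1.92 to -0.56) below the CPM minimum. Rfx5, a factor that binds class II promoters, was called higher (0.59), and its partners Rfxank and Rfxap were at 0.10 and 0.14 with intervals that included 0. In contrast to class II, none of 13 measured genes of MHC class I presentation was called in either direction, with a median of -0.11, among them H2-K1 (-0.11), B2m (-0.08) and Nlrc5, the transactivator of class I genes (-0.45).

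The promoters of class II genes that were called higher are shown because they share a short element known as the Y box, an inverted CCAAT box bound by NF-Y. Capitals mark TGATTGG, searched on both strands as a window of 7 bases, in RefSeq promoters (250 bases before to 50 after a start, GRCm38.p6).
H2-Aa promoter (chr17:34287774-34288073, minus strand): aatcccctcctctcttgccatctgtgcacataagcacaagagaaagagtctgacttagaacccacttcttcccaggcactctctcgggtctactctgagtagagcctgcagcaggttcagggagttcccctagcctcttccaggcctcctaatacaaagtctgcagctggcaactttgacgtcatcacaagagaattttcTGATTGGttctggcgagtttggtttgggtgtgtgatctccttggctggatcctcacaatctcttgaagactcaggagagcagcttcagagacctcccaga
H2-Eb1 promoter (chr17:34305617-34305916, plus strand): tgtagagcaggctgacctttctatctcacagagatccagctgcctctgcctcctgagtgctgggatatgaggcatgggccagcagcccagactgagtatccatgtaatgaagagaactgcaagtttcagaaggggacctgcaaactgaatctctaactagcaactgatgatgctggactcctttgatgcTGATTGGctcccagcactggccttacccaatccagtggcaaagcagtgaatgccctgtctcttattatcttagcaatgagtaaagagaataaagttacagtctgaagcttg
H2-Oa promoter (chr17:34092129-34092428, plus strand): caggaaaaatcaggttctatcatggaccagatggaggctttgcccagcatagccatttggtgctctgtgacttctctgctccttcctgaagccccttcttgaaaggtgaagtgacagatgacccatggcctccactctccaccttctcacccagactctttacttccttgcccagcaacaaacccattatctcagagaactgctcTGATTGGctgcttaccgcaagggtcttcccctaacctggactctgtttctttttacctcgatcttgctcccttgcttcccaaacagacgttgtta
H2-DMb2 promoter (chr17:34144999-34145298, plus strand): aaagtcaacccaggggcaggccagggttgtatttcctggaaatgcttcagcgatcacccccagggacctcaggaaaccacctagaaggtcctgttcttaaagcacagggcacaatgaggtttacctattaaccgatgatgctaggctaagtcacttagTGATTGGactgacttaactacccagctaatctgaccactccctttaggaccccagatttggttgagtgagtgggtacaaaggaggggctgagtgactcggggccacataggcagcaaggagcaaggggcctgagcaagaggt
The element began 50, 61, 45 and 92 bases before the start in H2-Aa, H2-Eb1, H2-Oa and H2-DMb2. Of 11 class II genes searched, 8 had an entry in the table and 7 of these held the element, H2-Ob, H2-Eb2 and H2-DMb1 included, which were not called higher, while H2-DMa, which was, did not hold it. It occurred in 2538 of 32544 promoters of this length (7.80%). A match is a run of letters and not a measured site.

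Several B7 family ligands, which deliver second signals to T cells, were higher in BFP+. Of 7 measured, 4 were called higher (3.44% of all tested genes were) and none lower, with a median log2 ratio of 0.77 (0.73 in deep and 0.57 in shallow barcodes). Cd80, a ligand of CD28 and CTLA-4 (chromosome 16, 38455561 to 38496335, plus strand), was at 155 CPM in BFP+ (388 UMIs) and 60.7 CPM in BFP- (813 UMIs), a log2 ratio of 1.35 (1.18 to 1.53). With barcodes thinned to 5000 UMIs, 32.3% of BFP+ (25.6% to 39.5%) and 16.3% of BFP- barcodes (13.5% to 19.4%) had a Cd80 UMI, against 2 of 23 lymphocyte barcodes. Cd86, which binds the same receptors, was at 238 against 129 CPM (0.89), and Cd274 (PD-L1) at 271 against 159 CPM (0.77). Cd200, whose receptor restrains myeloid cells, was at 115 against 51.7 CPM (1.16). It is counted in this list and among the 4 called, though it is not a B7 family member. Icosl had a ratio of -0.13 (-0.29 to 0.02). Vsir had -1.50 (-2.33 to -0.77), at 6.40 against 18.1 CPM, below the CPM minimum.

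Among the other TNF family ligands, Cd70, which engages CD27 on T cells, was called higher (27.6 against 13.1 CPM, log2 1.08, 0.66 to 1.49) and Ltb, a subunit of lymphotoxin, lower (24.8 against 52.8 CPM, -1.09, -1.49 to -0.71). The median of 10 measured ligands was -0.05. Tnfsf11 (RANKL) had the widest ratio of the list, 4.18 (3.00 to 5.53), from 27 UMIs in BFP+ (10.8 CPM) and 8 in BFP- (0.60 CPM), which left it below the CPM minimum. Those 27 UMIs came from 7 barcodes, 1 of which held 12, and without the top barcode of each population the ratio was 3.52. Tnfsf9 (4-1BBL) had 0.37 and Tnf -0.20 (-0.53 to 0.11).

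General maturation genes differed little. Of 18 measured maturation receptors and regulators, 1 was called higher (Cd200, counted above as well) and none lower, with a median of 0.02. Cd40, the receptor for T cell help, had a ratio of -0.37 (-0.47 to -0.26) and Cd83, which stabilises surface class II, -0.27 (-0.33 to -0.22). None of 17 NF-kappaB subunits and feedback genes was called, with a median of 0.03 and Nfkb1 at 0.41. Of 22 genes of the TSLP receptor and STAT5 targets, 1 was called higher and the median was 0.11. That gene was Il2ra, the interleukin-2 receptor alpha chain, at 86.4 against 34.5 CPM (1.33, 1.09 to 1.56). The TSLP receptor chains Crlf2 and Il7r had -0.23 (-0.65 to 0.15) and 0.50 (0.35 to 0.66).

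The signalling and developmental genes with the firmest differences included Stat4. Stat4, a transcription factor activated downstream of interleukin-12 and type I interferon (chromosome 1, 51987148 to 52107189, plus strand), was at 170 CPM in BFP+ (425 UMIs in 139 barcodes) and 47.9 CPM in BFP- (641 UMIs in 465 barcodes), a log2 ratio of 1.83 (1.65 to 2.01). It was 2.17 in deep and 0.81 (0.34 to 1.24) in shallow barcodes. Thinned to 5000 UMIs, 79 of 186 BFP+ and 88 of 627 BFP- barcodes had a Stat4 UMI, against 7 of 23 lymphocyte barcodes. The lymphocyte interval, 13.2% to 52.9%, overlapped those of both populations. As with Ciita, lymphocytes may transcribe Stat4 themselves, so their share is no background level for it. Pla1a, a phosphatidylserine phospholipase, was at 30.4 against 6.20 CPM (2.29, 1.83 to 2.76). Dkk2, a secreted Wnt inhibitor, was at 39.6 against 12.2 CPM (1.70), and Nrg1, a ligand of ErbB receptors, at 31.2 against 10.1 CPM (1.63). In shallow barcodes Dkk2 had 0.12 (-1.23 to 1.22) and Nrg1 -0.47 (-2.13 to 0.80), against 1.95 and 2.54 in deep ones. Of the 78 Nrg1 UMIs in BFP+, 21 lay in 1 barcode, and without the top barcode of each population its ratio was 1.24 (0.77 to 1.70). The shallow intervals of Pla1a (0.76, -0.61 to 1.90), Fam169b (0.62, -0.56 to 1.62) and Dock9 (0.98, -0.40 to 2.13) included 0 as well.

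The Notch ligand Dll4 was at 21.6 against 6.57 CPM (1.72, 1.20 to 2.22), from 54 UMIs in 13 BFP+ barcodes. It was the 1 gene called higher of 11 measured Notch ligands and receptors, whose median was -0.56, and Jag1 had -0.56 (-0.87 to -0.26). The adhesion molecule L1cam (46.4 against 17.8 CPM, 1.38), the exchange factor Dock9 (22.4 against 7.76 CPM, 1.53), the cyclin Ccnd2 (69.2 against 28.4 CPM, 1.28) and Fam169b (31.6 against 9.85 CPM, 1.68) completed the 15 genes named higher with BFP, Tnfsf4, Ciita, H2-DMb2, Cd80 and Il2ra. A single barcode held 49 of 173 BFP+ UMIs of Ccnd2 and 18 of 54 of Dll4. Without the top barcode of each population their ratios were 0.87 (0.56 to 1.17) and 1.27 (0.66 to 1.85). L1cam was the only named higher gene whose shallow ratio (1.63, 0.97 to 2.24) lay above its deep one (1.23, 0.82 to 1.64), and those intervals overlapped.

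**Figure D3:**
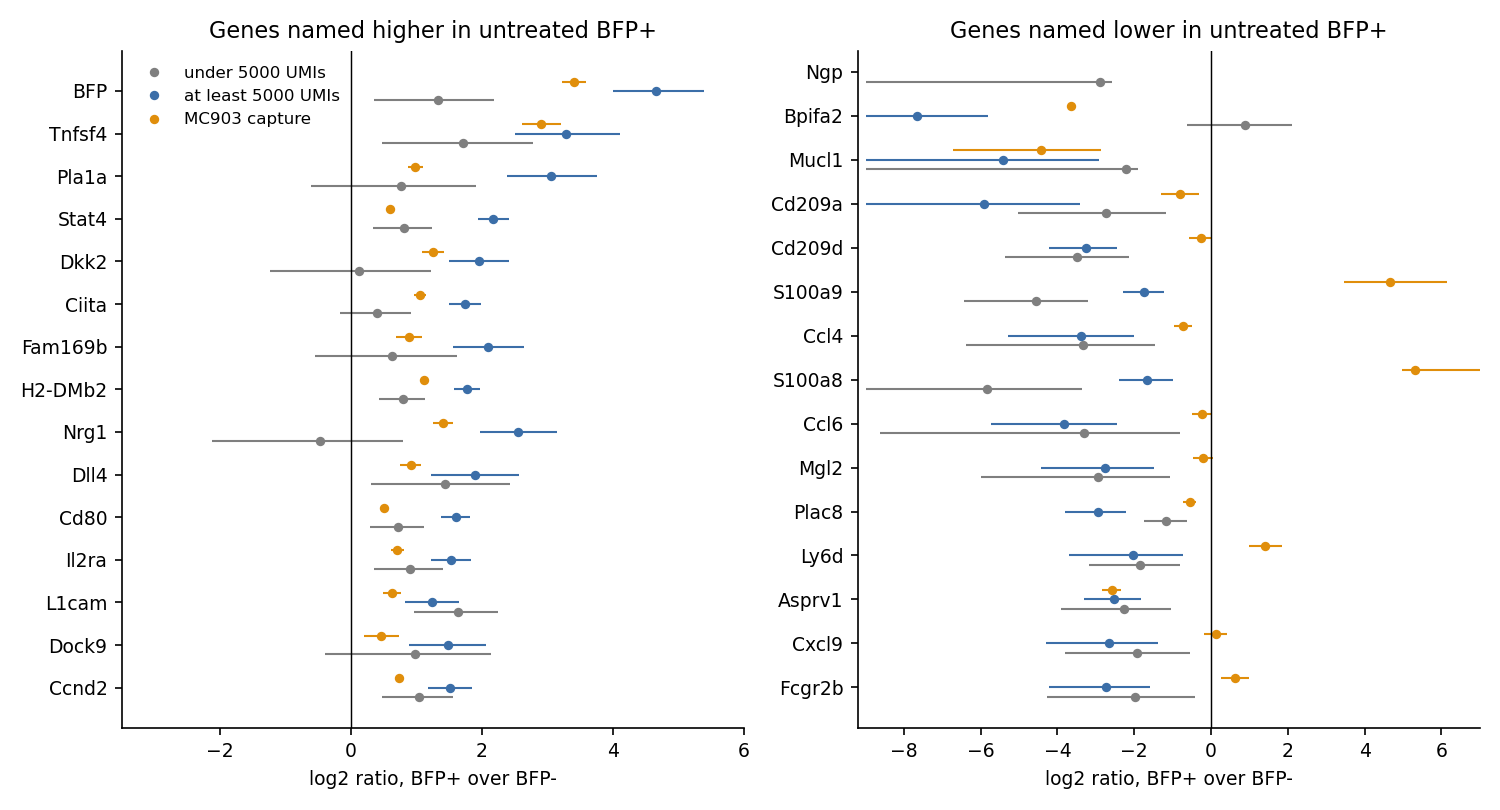
log2 ratios of BFP+ over BFP- for the 15 genes named higher (left) and the 15 named lower (right) in shallow (grey) and deep (blue) untreated barcodes and in the MC903 capture (orange), with 95% counting intervals drawn to -9 at most; a population at 0 is set to 3 UMIs, and a missing point has too few UMIs. Deep ratios of genes named higher range from 1.23 (L1cam) to 4.66 (BFP). S100a8, S100a9, Ly6d, Fcgr2b and Cxcl9 lie on opposite sides of 0 in the untreated and MC903 captures.

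Among DC transcription factors, Irf4 was higher and Irf8 lower in BFP+. Of 20 measured, 2 were called higher and 2 lower (3.44% and 4.78% of all tested genes were), with a median of -0.07. Irf4, required for migratory cDC2, was at 105 against 48.5 CPM (1.11, 0.90 to 1.32) and Runx3 at 121 against 71.1 CPM (0.77). Irf8, required for cDC1, was at 184 against 315 CPM (-0.78, -0.92 to -0.64) and Klf2 at 91.6 against 141 CPM (-0.63). Batf3, a cDC1 factor that mature DCs of other types also express, had 0.25, and Tcf4 0.45.

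Chemokines and cytokines were mostly level or lower in BFP+. Of 17 measured chemokines, 6 were called lower and 2 higher (4.78% and 3.44% of all tested genes were), with a median of -0.36. Ccl5, a T cell attractant and among the most abundant transcripts (chromosome 11, 83525778 to 83530518, minus strand), was at 7076 against 12600 CPM (-0.83, -0.85 to -0.81). Ccl4 (2.40 against 30.5 CPM, -3.67), Ccl6 (-3.56), Cxcl9 (-2.67), Ccl19 (-1.03) and Ccl9 (-0.79) were the others called lower. Cxcl10, an attractant of CXCR3-bearing T cells, was called higher (64.0 against 34.0 CPM, 0.91). Ccl24 was called higher (3.56), but its 121 UMIs came from 3 BFP+ barcodes, 1 of which held 81. The CCR4 ligands Ccl22 and Ccl17 had 0.41 (0.36 to 0.45) and 0.33 (0.22 to 0.43). Of 15 cytokines, Il1b was called lower at 414 against 775 CPM (-0.90), and Osm (0.95) and Ebi3 (0.73) higher. With barcodes thinned to 5000 UMIs, 30.1% of BFP+ (23.6% to 37.3%) and 39.9% of BFP- barcodes (36.0% to 43.8%) had an Il1b UMI, against 3 of 23 lymphocyte barcodes.

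Among markers of DC types, most called genes were lower in BFP+. Of 10 measured cDC2 markers, 4 were called lower and 1, Irf4, higher (4.78% and 3.44% of all tested genes were). The cDC2 list nonetheless summed to more in BFP+ (3603 CPM) than in BFP- (2927 CPM). The cDC1 (613 and 766 CPM) and Langerhans cell lists (339 and 655 CPM) summed to less in BFP+. The lectins Cd209d (6.40 against 73.4 CPM, -3.52, -4.33 to -2.81), Cd209a (1.60 against 34.6 CPM, -4.44) and Mgl2 (2.80 against 23.8 CPM, -3.09) and the receptor Sirpa (-0.63) were lower. With HTODemux, Cd209d had -0.36, Cd209a -0.40 and Mgl2 0.27, and of the 14 genes named lower that had a ratio, 10 kept their direction and 7 the fold, against all 15 named higher. The BFP- barcodes of HTODemux were deeper (median 8250 UMIs) than its BFP+ barcodes (2859). Of 11 cDC1 markers, 3 were called lower and none higher, with a median of -1.58, among them Wdfy4, which cross-presentation needs (6.80 against 28.3 CPM, -2.06). Xcr1 and Clec9a, which define cDC1, were low in both populations, at 2.00 against 8.21 CPM and 0.40 against 3.73 CPM. Of 7 Langerhans cell markers, 3 were called lower and the median was -1.11, with Epcam at 10.8 against 34.9 CPM (-1.69), Mfge8 at 130 against 299 CPM (-1.20) and Cd207 (langerin) at 3.20 against 14.6 CPM (-2.19), below the CPM minimum in BFP+ and BFP- alike. All 7 genes of a mature cDC1 list were called lower, with a median of -1.73, but that list was drawn up from earlier results on these libraries. It held Asprv1 (8.80 against 47.6 CPM, -2.44), Laptm4b (16.4 against 58.4 CPM, -1.83) and Apol7c (1234 against 2503 CPM, -1.02).

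C-type lectins and pattern receptors had a median of -1.80 over 16 measured genes. Of these, 2 were called lower, Cd209a and Mgl2, and 1 higher (4.78% and 3.44% of all tested genes were). The higher gene was Ly86 (MD-1), the partner of Cd180, at 329 against 157 CPM (1.07, 0.95 to 1.19), whereas Cd180 itself had -2.07 at 1.60 against 6.72 CPM. Fcgr2b, the inhibitory receptor for IgG, was at 3.60 against 21.7 CPM (-2.59).

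Genes linked to immune tolerance and to lipid mediators were lower where they were called. Of 12 measured genes of tolerance and retinoic acid, 3 were called lower and none higher (4.78% and 3.44% of all tested genes were). They were Aldh1a2, which makes retinoic acid (-0.69), Itgb8, which activates TGF-beta (-1.01), and the DNase Dnase1l3 (-1.73). Of 8 genes of leukotriene and prostaglandin synthesis, 3 were called lower, none lay above 0, and the median was -0.53. Ptgs2 (COX-2) was at 59.2 against 152 CPM (-1.36, -1.61 to -1.12), Alox5ap at 8.80 against 35.5 CPM (-2.01) and Ltc4s at 176 against 271 CPM (-0.63). Dnase1l3 is also in the mature cDC1 list and Ltc4s in the Langerhans cell list, so these calls are counted again here. With BFP- weighted to the cluster mix of BFP+, described below, the tolerance median was -0.09 in place of -0.60. The leukotriene and prostaglandin median was then -0.32.

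Stress and interferon genes were also lower where called, except Cxcl10. Of 21 immediate early and heat shock genes, which sorting and dissociation also raise, 4 were called lower in BFP+ and none higher. Of all tested genes, 4.78% were called lower and 3.44% higher. The median of the 21 was -0.31. Hspa1a was at 354 against 685 CPM (-0.95), Hspa1b at 372 against 685 CPM (-0.88), Dusp2 had -0.76 and Atf3 -0.73. The part of sample handling in the other lower genes was not tested. Of 19 interferon-stimulated genes, 3 were called lower (Ifitm3, Isg15 and Gbp4, -1.05 to -0.70) and 1 higher (Cxcl10). No gene was called among 20 of oxidative phosphorylation (median -0.04) or 13 of the unfolded protein response (-0.11). Among 22 genes of cholesterol and lipid synthesis 3 were called lower (Sqle, Stard4 and Insig1), with a median of -0.26, and among 19 of glycolysis and hypoxia 1 (Pfkp), with a median of -0.23.

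**Figure D4:**
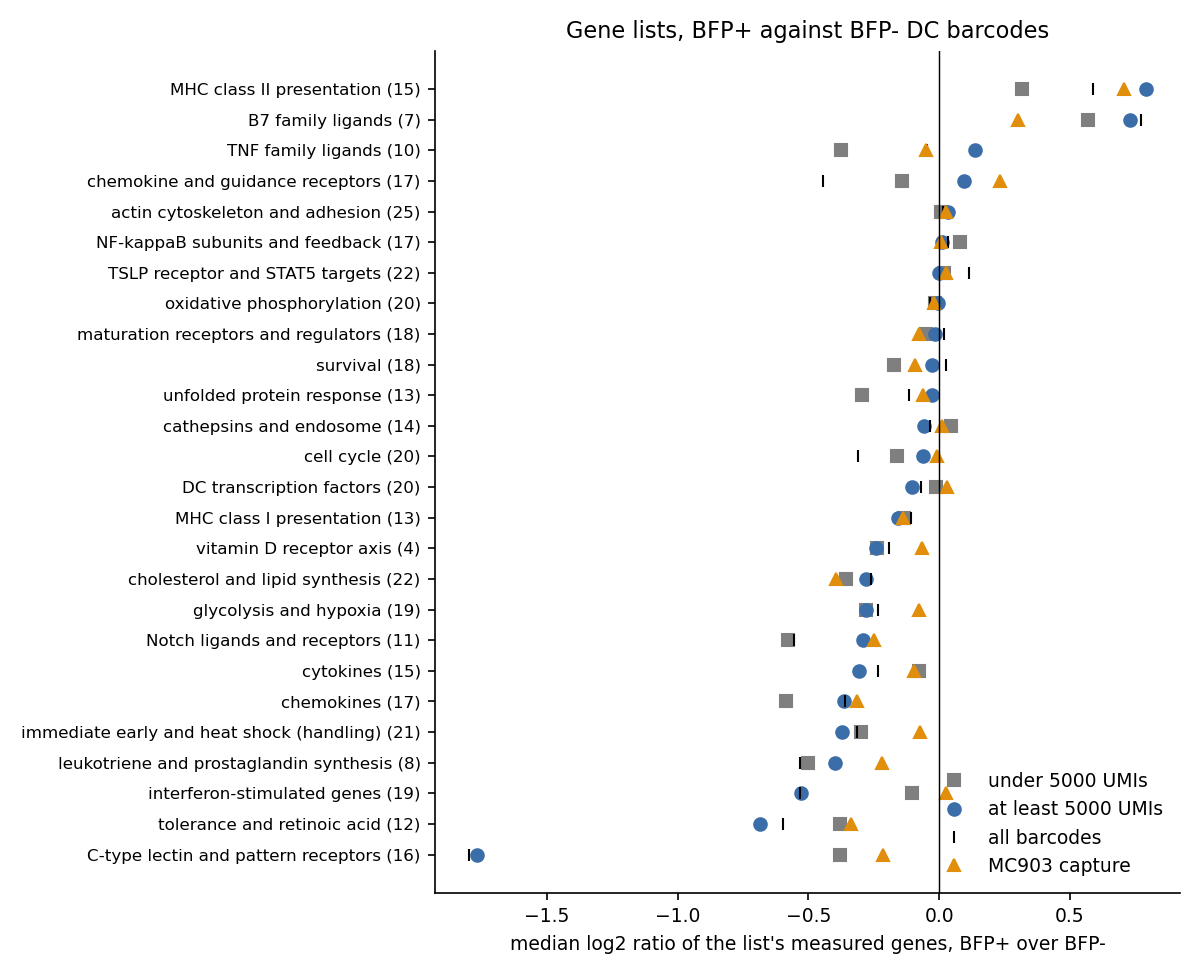
Median log2 ratio of BFP+ over BFP- of each pathway gene list, leaving out BFP and Tnfsf4 (members measured among all barcodes in parentheses) in shallow, deep and all untreated barcodes and in the MC903 capture. MHC class II presentation (0.79) and B7 family ligands (0.73) have the highest medians of the plotted lists in deep barcodes, and C-type lectin and pattern receptors (-1.77) the lowest.

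Several of the most extreme differences sat in few barcodes or in transcripts of other cell types. The neutrophil granule gene Ngp had no UMI in BFP+ and 311 in 15 BFP- barcodes (23.2 CPM), so that it was at least 4.27 log2 units lower with the floor of 3 UMIs. S100a9 was at 15.2 CPM in 3 BFP+ barcodes and 124 CPM in 54 BFP- barcodes (-3.03), and S100a8 at 8.40 against 73.8 CPM (-3.14). Of their 38 and 21 UMIs in BFP+, 34 and 19 lay in the top barcode, and without the top barcode of each population the ratios were -5.96 and -6.22. Without the clusters of other lineages described below they were 2.72 and 3.14, the opposite direction. The summed level of 6 neutrophil markers was 24.4 CPM in BFP+ and 207 CPM in BFP-, with 2 of the 6 at 0 in BFP+. Of the salivary and glandular transcripts, Bpifa2 (8 UMIs against 1305 in 31 barcodes, -4.93) had 0.88 (-0.64 to 2.12) in shallow barcodes and -0.75 (-2.26 to 0.47) without the top barcodes, at 2.40 against 4.03 CPM, which ends the call, and Mucl1 had 1 UMI against 326. In BFP+, 702 of the 704 UMIs of haemoglobin Hbb-bs lay in 1 barcode. B cell markers without Cd79a and Cd79b, of cells that a B220- gate would remove, summed to 46.0 CPM in BFP+ and 126 CPM in BFP-, with 1 of 10 called lower, and monocyte or macrophage markers to 362 and 541 CPM, with 1 of 11 (Plac8, -2.42) called lower. T cell markers without the Cd3 genes summed to 370 and 349 CPM, with 2 of 13 called lower (Cd8a, which DCs also express, and Trbc2) and 1 higher (Tcf7). The part of other cell types in the lower genes was not tested. The remaining genes named lower were Ly6d (4.80 against 31.0 CPM, -2.69) with Ccl4, Ccl6, Cxcl9, Cd209a, Cd209d, Mgl2, Plac8, Asprv1 and Fcgr2b from above.

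Clustering all 5091 DC barcodes, without BFP and Tnfsf4 among the genes used, gave 14 clusters, and 1 of them held a far larger share of BFP+ than of BFP- barcodes. Cluster 2, led by Dkk2, Stat4, Cd80, H2-DMb2, Ccnd2 and Ciita, took 131 of 385 BFP+ barcodes (34.0%, 29.3% to 39.0%), 215 of 3470 BFP- barcodes (6.20%, 5.42% to 7.05%) and 370 of 1236 mixed barcodes (29.9%, 27.4% to 32.6%). In deep barcodes its shares were 39.2% of BFP+ and 4.78% of BFP-, and in shallow ones 29.1% and 6.51%. Because its leading genes are themselves genes that differ, the share and the gene ratios are not separate observations. The best-matching list of the cluster was the erythroid one, with 3 haemoglobin markers. None of these was among its 10 leading genes, and the cluster was left unnamed.

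Other clusters held more of the BFP- barcodes. The cDC2-like cluster, led by Cd209e, Cd209a and Cd209d, took 1.30% of BFP+ (0.42% to 3.00%) and 11.4% of BFP- barcodes (10.4% to 12.6%). The Langerhans cell-like cluster, led by Tcim, Cd207 and Tcaf2, took 4.16% (2.39% to 6.66%) and 10.0% (9.02% to 11.0%), and a cluster led by Laptm4b, Gclc and Smagp took 0.78% (0.16% to 2.26%) and 8.50% (7.59% to 9.48%). In deep barcodes these shares were 1.61% and 7.66%, 5.38% and 17.1%, and 1.08% and 14.8%. The small cDC1-like cluster, led by Xcr1, took 1.30% (0.42% to 3.00%) and 2.31% (1.83% to 2.86%), intervals that overlapped. The 4 clusters whose best-matching markers were of T cells, monocytes or macrophages, B cells or neutrophils held 8.05% of BFP+ (5.54% to 11.2%), 15.1% of BFP- (525 of 3470) and 21.6% of mixed barcodes (19.3% to 24.0%). The neutrophil-like cluster had 0 of 385 BFP+ barcodes, which allows a share of up to 0.78%, and 38 of 3470 BFP- barcodes (1.10%). Clusters 0 (led by Cxcl1), 1 (Rrad) and 3 (Hspa1b) took 43, 70 and 66 of the 385 BFP+ barcodes and 572, 521 and 375 of the 3470 BFP- barcodes. With HTODemux, whose BFP+ calls are mostly mixed barcodes, cluster 2 took 30.2% of BFP+ and 3.04% of BFP-, the Langerhans cell-like cluster 2.52% and 17.4%, and the Laptm4b cluster 1.84% and 15.7%. Other shares turned: the cDC2-like cluster took 5.18% (4.10% to 6.44%) and 4.64% (3.13% to 6.60%), the neutrophil-like cluster 1.91% and 0.16%, all 4 clusters of other lineages 17.0% and 4.0%, cluster 1 16.6% and 18.1%, and cluster 3 9.67% and 15.5%. Depth turned as well: HTODemux BFP+ barcodes had a median of 2859 UMIs (18.6% deep) and its BFP- barcodes 8250 (70.4% deep). The part of depth in the turned shares was not tested. Without the clusters of other lineages, 183 of 5018 genes (3.65%) were called higher and 265 (5.28%) lower.

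**Figure D5:**
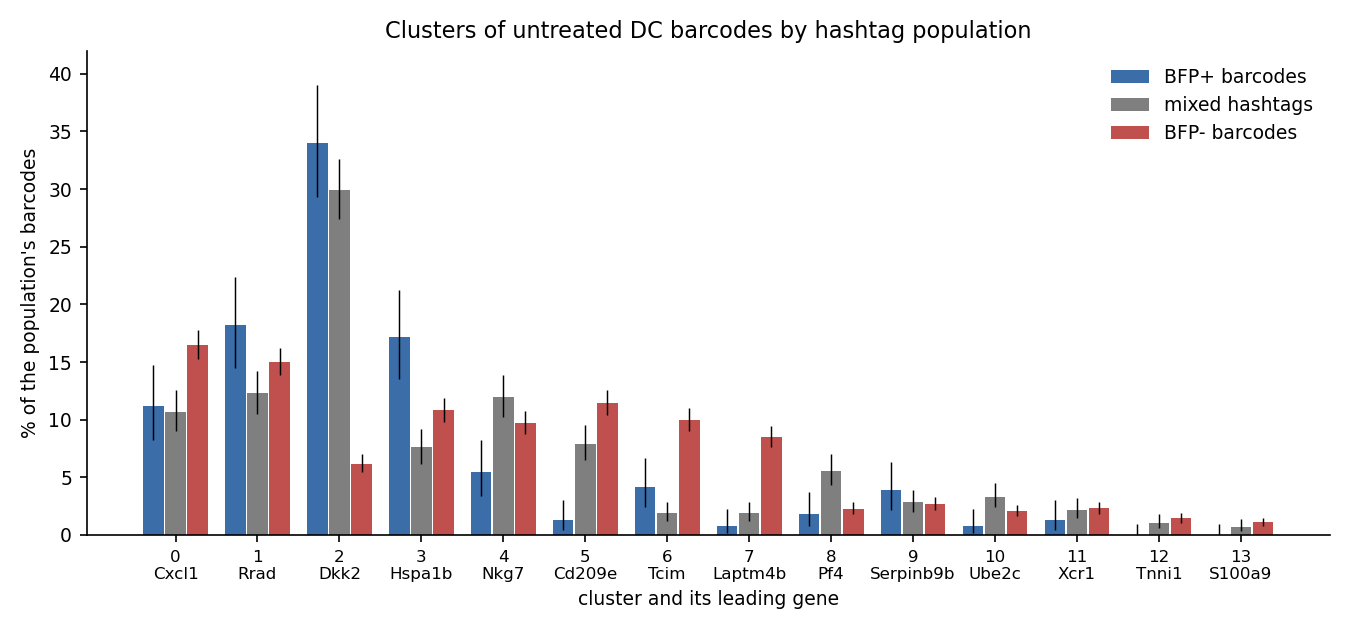
Share of BFP+ (blue), mixed (grey) and BFP- (red) untreated DC barcodes in each of 14 clusters, with the leading gene under the cluster number and exact 95% Clopper-Pearson intervals. Cluster 2 holds 34.0%, 29.9% and 6.20%, and clusters 5, 6 and 7 hold larger shares of BFP- than of BFP+ barcodes.

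Inside cluster 2 BFP, Pla1a, Stat4, H2-DMb2, Ciita, Il2ra and Cd80 were higher in BFP+, and the intervals of Tnfsf4 and Dkk2 included 0. Depth was not equal there: 73 of the 131 BFP+ and 30 of the 215 BFP- barcodes were deep. The part of depth in these ratios was not tested. BFP was at 135 CPM in its BFP+ barcodes, 35.6 CPM in its BFP- barcodes and 117 CPM in its mixed barcodes, with a log2 ratio of 1.92 (1.34 to 2.55) between the first and second. Tnfsf4 was at 46.5, 28.2 and 34.7 CPM, with a ratio of 0.72 (-0.02 to 1.51). Pla1a had 2.32 (1.30 to 3.52), Stat4 0.92 (0.62 to 1.24), H2-DMb2 0.86, Ciita 0.83 (0.50 to 1.17), Il2ra 0.78 and Cd80 0.73 (0.43 to 1.03), while Dkk2 had 0.33 (-0.16 to 0.84). The BFP- barcodes of clusters 0, 1 and 3 held less BFP, at 7.40, 6.12 and 1.26 CPM. In the same clusters BFP+ barcodes held 37.4, 37.9 and 14.8 CPM. Small clusters rested on few UMIs. BFP- barcodes of cluster 13 had 19.0 CPM of BFP (2 UMIs, 2.31 to 68.8). Those of cluster 12 had 22.9 CPM of Tnfsf4 (4 UMIs, 6.25 to 58.7).

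With BFP- clusters weighted to the cluster mix of BFP+, the ratios of all 15 genes named higher were smaller. Depth within the clusters was not matched. BFP then had a ratio of 2.06 and Tnfsf4 1.08, Stat4 0.97, Ciita 0.90, H2-DMb2 0.89 and Cd80 0.65, while Pla1a had 1.99 and Dkk2, at 0.18, was no longer called, and 114 genes were called higher (2.31% of 4937) and 104 lower (2.11%). The class II median was 0.50 and the B7 median 0.35 under this weighting, and the cDC1 and tolerance medians were -0.07 and -0.09. Of the genes named lower, Ccl6 had -3.57 and Mucl1 -5.91, close to their unweighted ratios, Asprv1 had -1.94 and Cd209d -1.57, and S100a8 and S100a9 turned to 3.87 and 2.95. The turned ratios rest largely on 1 BFP+ barcode, which held 19 of 21 S100a8 and 34 of 38 S100a9 UMIs.

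In summed CPM, mixed barcodes lay between the populations for nearly all named genes. All 15 genes named higher had a mixed CPM between BFP- and BFP+, such as Stat4 at 111 CPM, Ciita at 84.5 CPM and Cd80 at 108 CPM. Of the 15 genes named lower, 14 did, and Ly6d, at 36.5 CPM, was above BFP-. The mixed barcodes were shallower, with a median of 2470 UMIs and 6.15% deep (4.87% to 7.64%).

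Set beside the same comparison after MC903, most genes called in untreated barcodes and at 20 CPM or more after MC903 had the same direction. The MC903 capture gave 1280 BFP+ barcodes (median 10018 UMIs) and 2831 BFP- barcodes (median 9380) by the same limits with hashtags 3 and 4, and 68 of 4797 genes (1.42%) were called higher and 87 (1.81%) lower. BFP had a log2 ratio of 3.41 and Tnfsf4 2.91 there, within counting error of the untreated ratios over all barcodes (difference -0.01, -0.41 to 0.39, and -0.23, -0.81 to 0.35). The MC903 barcodes were mostly deep, 92.5% of BFP+ and 88.8% of BFP-. In untreated deep barcodes the BFP ratio was 4.66 (4.00 to 5.39), above that after MC903 (3.23 to 3.59). The untreated deep ratio of Tnfsf4 was 3.28 (2.51 to 4.10), an interval that overlapped the one after MC903 (2.62 to 3.20). Of 159 genes called higher in untreated barcodes and at 20 CPM or more after MC903, 156 had the same direction and 40 were called, with medians of 0.78 and 0.38. Of 160 called lower, 144 had the same direction and 51 were called, with medians of -0.73 and -0.36. These genes were chosen for their untreated ratios, which by itself makes the other median smaller. The ratio was larger in untreated barcodes by 1.31 (0.85 to 1.77) for Pla1a, 1.23 (1.04 to 1.42) for Stat4, 0.85 (0.67 to 1.03) for Cd80 and 0.44 (0.23 to 0.65) for Ciita. The class II median was 0.71 after MC903, with 8 of 15 called higher, and the B7 median 0.30 with 1 called. Cd209d had -0.26 after MC903 at 9.79 against 11.8 CPM, and the untreated ratio minus this one was -3.25 (-4.02 to -2.49). Asprv1 had -2.59 after MC903, and Epcam -3.53. The 2 conditions differed in capture, sequencing lane and depth, which cannot be told apart from treatment.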

How the data were processed

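The authors deposited 1 matrix of UMI counts for each capture, with genes and hashtags as its features. The file headers name Cell Ranger 3.1.0, and the submitters' processing notes name GRCm38 (mm10). Each matrix had 22631 gene rows, BFP included. Libraries were 10x 3' v3 with TotalSeq-A hashtags, per the labels' protocols. The barcodes are those the authors' matrices hold, and no doublet caller was run: a barcode with under 80% of either hashtag was kept apart as mixed.

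UMIs were summed per population and scaled to CPM. The log2 ratio has an exact conditional binomial 95% interval. With 1 pool per population there is no test. A gene was called at 20 CPM or more in the higher population and 1.5-fold or more. A population at 0 was set to 3 UMIs, and no ratio is given where that floor says nothing. PCR duplicates are collapsed by UMI, and intervals cover counting error only. Named genes were 15 each way: at least 20 CPM, UMIs in at least 10 barcodes of the higher population, at least 1.5-fold also after thinning to 1000 UMIs and without the top barcode of each population, ranked by the interval bound nearest 0, leaving out mitochondrial, ribosomal, immunoglobulin, T cell receptor, haemoglobin, sex-linked and unnamed genes and those of the barcode rule. Per list, up to 4 further genes of extreme ratio and genes described for their role are named. List members needed 20 UMIs in both populations together, while the shares over all tested genes are of genes at 20 CPM or more. Members, rule and the 27 pathway and 14 marker lists were chosen with earlier results of these data known. Tnfsf11, Ccl24 and Hbb-bs were singled out after their values were seen, and so was the split at 5000 UMIs.

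DC barcodes were clustered with scanpy 1.11.5 and leidenalg 0.10.2 (1974 variable genes, 30 components, 15 neighbours, resolution 0.8). A cluster was named from at least 3 markers of a list at 20 CPM and 2-fold, with a gene of that list among its 10 leading genes. A cluster of far lower median depth than all DC barcodes would also have stayed unnamed. Alternatives used edgeR 4.0.16 (TMM) and HTODemux of Seurat 5.3.0 (quantile 0.99) in R 4.3.3, numpy 2.4.6, scipy 1.17.1 and Python 3.11.15. The interval and the call rule were run on simulated Poisson counts, the model that the interval assumes. Transcripts concentrated in single barcodes were not simulated. Gene positions are from GENCODE, and promoter sequences from RefSeq, both GRCm38.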

Additional observations from a re-analysis of the deposited data

Results flagged for a closer look

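Barcodes with mixed hashtags, which the comparison does not use, held reporter transcripts well above the BFP- level: BFP was at 55.7 CPM and Tnfsf4 at 18.1 CPM, against 6.94 and 4.25 CPM in BFP- barcodes. Hashtags 3 and 4, which were put on MC903 cells, gave 159 and 30 counts in the untreated capture, above the 3 counts that an absence would allow. Of the 159, 31 lay in BFP+ and 21 in BFP- DC barcodes, beside 116202 and 40511 counts of hashtag 1.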

How the results depend on the processing

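Counts of higher and lower genes were 310 and 502 under 5000 UMIs, 517 and 651 after thinning to 1000 UMIs, 114 and 104 with BFP- weighted to the cluster mix of BFP+, 902 and 1888 with no CPM minimum, and 87 and 90 at 50 CPM; HTODemux singlets gave 160 lower. The BFP ratio was 4.33 at a 90% hashtag share, 5.24 with HTODemux, 4.66 at 5000 UMIs or more, 1.32 under 5000, 2.79 thinned, 4.05 with BFP- matched to the depth of BFP+, 2.47 with each barcode weighted alike and 2.06 with the cluster mix. The Tnfsf4 ratio was 3.67 with HTODemux, 3.28 at 5000 UMIs or more, 1.71 under 5000, 1.31 thinned (-0.15 to 2.56), 3.62 depth-matched and 1.08 with the cluster mix.

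Reversed ratios under 5000 UMIs were Nrg1 (-0.47), Bpifa2 (0.88) and the erythroid median (-1.66; -1.04 without the top barcodes). HTODemux, whose BFP+ calls were 381 dominant BFP+, 168 dominant BFP- and 919 mixed barcodes, reversed Mgl2 (0.27), Plac8 (0.57), Ly6d (1.91), Cxcl9 (0.091) and the medians of C-type lectins (0.061), plasmacytoid DC (0.30), B cell (1.59), T cell (0.83) and stromal markers (0.78). Its BFP+ barcodes were shallower, with a median of 2859 UMIs against 8250 in its BFP- barcodes. Single barcodes weighed: without the top barcode of each population Bpifa2 had -0.75, at 4.03 CPM or less. Without clusters of other lineages and with the cluster mix, S100a9 (2.72 and 2.95), S100a8 (3.14 and 3.87) and the neutrophil median (2.93 and 3.41) reversed. In BFP+, 1 barcode held 34 of 38 S100a9 and 19 of 21 S100a8 UMIs. The plasmacytoid median was 0.11 with the cluster mix, and the stromal median, from 2 genes, 0.23 at 5000 UMIs or more, 0.15 depth-matched and 0.24 with the cluster mix. Of 475 ratios of named genes under an alternative, 330 stayed inside the gene's counting interval, 135 moved beyond it and 10 reversed. Of 654 list medians, 580 stayed between the medians of the members' interval bounds, 61 moved beyond them and 13 with a median past the fold limit reversed. The causes were not tested. Resolution 0.4 gave 9 clusters.

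No paired analysis was possible because each population is 1 pool, with no replicate to leave out or to pair. Depth limits low genes: in shallow BFP+ barcodes 1 population sum holds 522871 UMIs. The thinned values and those under 5000 UMIs rest on the fewest UMIs. The 5000 UMI split, the cluster weighting and leaving out other lineages were chosen after seeing the data.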

Other observations

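In gene groups not described above, few members were called (3.44% of all tested genes were called higher and 4.78% lower), and nothing is read from 1 called member of a list. Gpr183, the oxysterol receptor that positions DCs in lymphoid tissue, was at 297 CPM in BFP+ and 183 CPM in BFP- (log2 ratio 0.70, 0.58 to 0.82), the 1 gene called among 17 measured chemokine and guidance receptors, whose median was -0.45. Serpina3g, an intracellular protease inhibitor, was at 92.4 against 44.8 CPM (1.05, 0.82 to 1.27), the 1 gene called of 18 survival genes with a median of 0.03. Ctsc, a cathepsin that activates serine proteases, was at 242 against 156 CPM (0.63, 0.50 to 0.77), the 1 gene called of 14 cathepsin and endosome genes with a median of -0.03, while Ctss, which trims the invariant chain, had -0.26 and was not called.

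Among 25 measured actin and adhesion genes the median was 0.02 and Itgax was the 1 called lower. Of 20 cell cycle genes, Ccnd2 and Tyms (28.4 against 15.5 CPM, 0.88) were called higher and Mki67, a marker of cycling cells, lower (16.4 against 29.6 CPM, -0.85), with a median of -0.31. Fabp5, a fatty acid binding protein of abundant expression, was at 4534 against 2482 CPM (0.87, 0.84 to 0.90), with 0.87 in deep and 0.82 in shallow barcodes and 0.33 after MC903. It was chosen after its values were seen. No gene of the vitamin D receptor axis was called among 4 measured, and Vdr itself had 17 and 45 UMIs (1.02, 0.12 to 1.85), below the CPM minimum.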
